A study of Mus musculus with 14 samples.

Results

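Male neurons that send axons to MeA were compared with male neurons of the same region, PiC, that send axons to PrL. The comparison rests on 7 of the 14 libraries of the series, 3 of male PiC-MeA and 4 of male PiC-PrL neurons, chosen by sex and projection as the labels give them; the 7 female libraries, 3 PiC-MeA and 4 PiC-PrL, serve only for a side-by-side reading. All animals were wild-type C57BL/6 mice. In every group 0.1 µl of AAVretro-EGFP had been injected into the target, MeA or PrL, so all collected cells carried the virus and EGFP. Each library was made with SMART-Seq2, a full-length method for polyadenylated RNA, from a tube of 4 to 5 EGFP-labelled cells drawn into a micropipette. No age and no batch is given in the sources used here, and whether tubes of a group came from different animals is not said, so p-values measure only the spread between these tubes.

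MeA is the usual abbreviation of the medial amygdala, a forebrain nucleus known for social and reproductive behaviour, and PrL that of the prelimbic cortex, a part of the medial prefrontal cortex; the labels spell out neither these nor PiC. Retrograde AAV enters axon terminals at the injection site and is carried to the cell body, so the label marks neurons by where they project and not by transmitter. Cortical projection neurons generally use glutamate and carry the vesicular transporter Slc17a7 and the kinase Camk2a, whereas Slc17a6 is the transporter of many subcortical glutamate neurons and Gad1 makes GABA in inhibitory neurons. A tube is a small pool: a lower value can come from fewer cells of a type or from less RNA per cell, and the 2 cannot be told apart.

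The libraries of the 2 groups differed in more than single genes. Total counts were 10572618, 10515270 and 6132985 in male PiC-MeA and 14274982 to 15225936 in male PiC-PrL. Despite fewer counts, the PiC-MeA libraries held 18964 to 20014 genes with at least 1 count and the PiC-PrL libraries 12479 to 13683 (means 19557 and 12868, exact two-sided permutation p = 0.0571, the smallest that 3 against 4 allows; adjusted over 4 library measures, 0.114). Of 1138 olfactory receptor genes in the table, which neurons outside the nose are not known for, 209 to 275 had a count in PiC-MeA and 43 to 45 in PiC-PrL. Mitochondrially encoded genes took 4.80, 9.23 and 15.3% of counts in PiC-MeA and 3.81 to 8.39% in PiC-PrL, ranges that overlapped (exact p = 0.229), and the 50 highest genes took similar shares (exact p = 0.514). Their part in the gene results below was not tested; a number of detected genes that does not overlap between groups cannot be told apart from the projection.

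Levels of single genes are CPM, that is counts scaled to a common library total with factors that edgeR makes by TMM. TMM is a trimmed mean of log ratios. Genes with a mean of at least 50 CPM over the 7 libraries are called well-counted. Summed levels of gene lists are scaled to the library total without TMM factors. These factors were 1.24 to 1.27 in PiC-MeA and 0.73 to 0.96 in PiC-PrL. Sums are therefore not on the scale of the gene levels. Genes were tested with the quasi-likelihood test of edgeR and counted as passed below 0.05 after Benjamini-Hochberg adjustment over all 12600 tested genes, and log2 values are PiC-MeA minus PiC-PrL. Among the 3694 well-counted genes, 195 were lower in PiC-MeA (5.28%) and 17 were higher (0.46%). The 195 lower genes had log2 values from -1.07 to -4.93, with a median of -2.18, and in each of them every PiC-MeA library lay below every PiC-PrL library. The 17 higher genes had log2 values from 1.66 to 7.65, and in 16 of them the groups did not overlap. Over all well-counted genes the groups were apart with PiC-MeA below in 833 (22.6%) and above in 117 (3.17%), and the median log2 value was -0.76, so values of single genes and of lists are read beside that median. Counts of list members whose groups were apart are read beside these shares. When only well-counted genes were scaled and fitted, the median moved to -0.11, and all 195 lower and 17 higher genes kept their signs. Only 3 of the lower and 4 of the higher genes still passed, and the median log2 of the 195 shrank to -1.52. In that edgeR fit 187 of the 195 lower genes had an unadjusted p under 0.05. The genes had been chosen on these same libraries, so kept signs and such p-values are no further support. Scaling, the estimate of spread and the number of genes adjusted over, 3694, all changed in that fit, and their separate parts were not tested.

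Over all tested genes 746 passed as higher (5.92%) and 195 as lower (1.55%), and counts of list members that passed are read beside these shares. All 195 lower genes were well-counted, so for lists of mostly well-counted genes the nearer share is the 5.28% among well-counted genes. The 729 higher genes that were not well-counted mostly had few or no counts in PiC-PrL: in 691 of them no PiC-PrL library held more than 3 counts. Such genes entered the test through their PiC-MeA counts alone, so their calls are given only as a description. Adjustment ranks all tested genes together, so the adjusted p of the well-counted genes rests in part on these calls. With 10 counts required in 5 libraries, 8529 genes were tested and 2 higher and 2 lower genes passed. All 195 lower and 17 higher well-counted genes had an unadjusted p under 0.05 in that edgeR fit, in which scaling and spread were also estimated anew. They had been chosen by small p in these same libraries, so this was nearly assured and is no further support. The evidence for single genes was thin. Of the 941 genes that passed, 938 had an adjusted p of at least 0.045, and only Dusp3 and Gnb1 among the lower genes and the predicted gene Gm10800 were below that. Leaving out any 1 of the 7 libraries left between 0 and 2 genes in each direction. All 195 lower and all 17 higher well-counted genes kept their direction in each such fit. The groups were already apart in all 195 and in 16 of the 17, so this was nearly fixed in advance and is no further support.

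**Figure D1:**
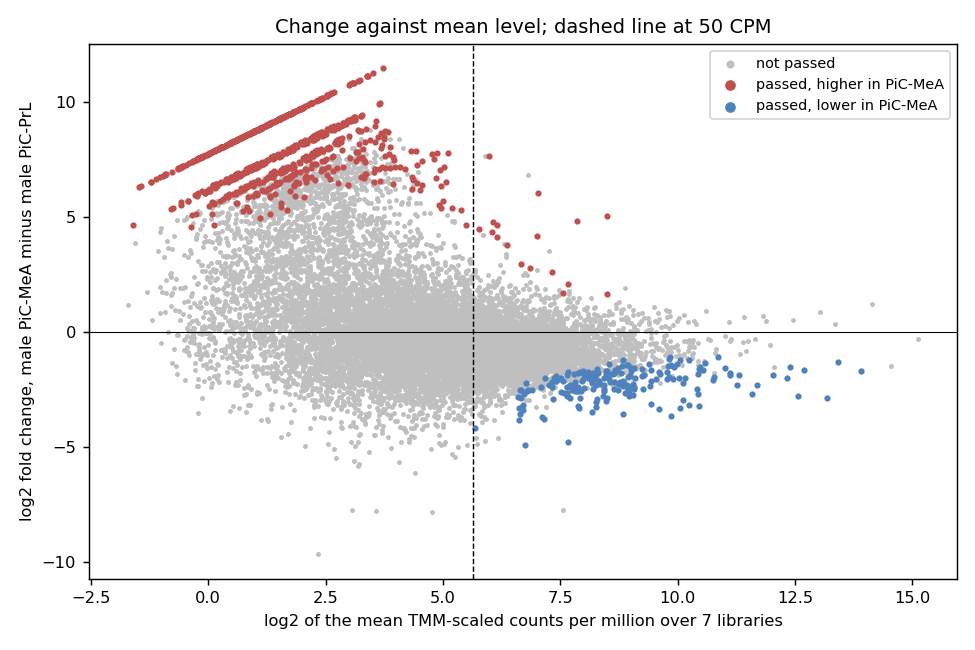
Each point is 1 of the 12600 tested genes, with the log2 of its mean level over the 7 male libraries on the x axis and its log2 fold change on the y axis; the dashed line marks 50 CPM. Right of the line 195 genes passed as lower and 17 as higher, and left of it the 729 that passed were all higher, in stripes set by low counts in PiC-PrL.

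Among the lower genes Dusp3 and Gnb1, both of intracellular signalling, had the smallest p. Dusp3 (chromosome 11, 101971143 to 101987013 in GRCm38), a phosphatase that acts on the MAP kinases ERK and JNK, measured 141, 137 and 87 CPM in the PiC-MeA libraries and 1274, 1886, 1324 and 1613 CPM in the PiC-PrL libraries. All 3 PiC-MeA values were far under the lowest PiC-PrL value, a 12.5-fold lower level (log2 -3.65 ± 0.36 SE, adjusted p = 0.00453). Gnb1 (chromosome 4, 155491361 to 155559269), the beta subunit of heterotrimeric G proteins that many receptors share, measured 1214, 1770.1 and 1192 CPM against 6289, 12754, 7659.7 and 11643 CPM. It was 6.89-fold lower (log2 -2.78 ± 0.34 SE, adjusted p = 0.0295), and PiC-MeA library 2, the highest of its group, was still under every PiC-PrL library. Without PiC-MeA library 2 or 3, or PiC-PrL library 2 or 3, neither gene passed.

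Nmt2 (chromosome 2, 3284212 to 3328877), which attaches myristate to proteins bound for membranes, measured 169, 268 and 311 CPM in PiC-MeA and 1447, 3591, 1468 and 2633 CPM in PiC-PrL (log2 -3.20 ± 0.44 SE, adjusted p = 0.0452). Inpp4a (chromosome 1, 37299865 to 37410736), a phosphatase of the lipid messenger PI(3,4)P2, measured 158, 265 and 222 and 1057, 2693, 1302 and 2733 CPM (log2 -3.18 ± 0.45 SE, adjusted p = 0.0452). In both genes PiC-PrL libraries 2 and 4 were the high ones, about the same split as in the transcription factor Klf13 (chromosome 7, 63886351 to 63938915). Klf13 measured 214, 194 and 114 CPM against 989.8, 2753, 1128 and 2049 CPM, a 9.93-fold lower level (log2 -3.31 ± 0.47 SE, adjusted p = 0.0452). Zwint (chromosome 10, 72654845 to 72674964), a kinetochore protein that is also found in neurons, had the tightest PiC-PrL group, with 5948, 5695, 6440.2 and 6420.0 CPM, and 1931, 1814 and 1232 CPM in PiC-MeA (log2 -1.88 ± 0.27 SE, adjusted p = 0.0452). Nudt3 (chromosome 17, 27579382 to 27623495), which hydrolyses diphosphoinositol polyphosphates, measured 77.5, 72.2 and 47.3 CPM in PiC-MeA and 561, 742, 342 and 333 CPM in PiC-PrL (log2 -2.91 ± 0.47 SE, adjusted p = 0.0452). The PiC-PrL values of Nudt3 split into a higher pair, libraries 1 and 2, and a lower pair, and both stayed above every PiC-MeA value.

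Other regulators of the RAS and MAP kinase pathway were among the lower genes. Of 32 tested MAP kinase regulators 4 passed as lower, beside 5.28% of all well-counted genes. They were Dusp3, Nras, Spry2 and Dusp8. As higher 1 passed, a gene with no count in PiC-PrL. The 22 well-counted members had a median log2 of -0.68, near that of all well-counted genes. Nras, the small GTPase upstream of RAF, measured 77.1, 175 and 78.5 CPM in PiC-MeA and 451, 1094, 495 and 438 CPM in PiC-PrL (log2 -2.49 ± 0.51 SE, adjusted p = 0.0452); PiC-PrL library 2 stood far above the other 3. Spry2, a feedback inhibitor of receptor tyrosine kinase signalling, measured 39, 142 and 172 CPM and 487, 1243, 457 and 768 CPM (log2 -2.65 ± 0.59 SE, adjusted p = 0.0452). In both genes the groups did not overlap.

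The cytoskeleton was represented by 6 lower genes of 31 tested tubulins, microtubule proteins and actins, and by none that passed as higher. Beside this, 5.28% of all well-counted genes passed as lower. The 24 well-counted members were all negative, with a median log2 of -0.96 (-1.81 without PiC-MeA library 1). In 11 of them every PiC-MeA library lay below every PiC-PrL library, beside 22.6% of all well-counted genes. Map1b (chromosome 13, 99421446 to 99516540), a microtubule-associated protein of growing axons, measured 2029, 2201 and 1411 CPM in PiC-MeA and 4881, 9312, 7848 and 8301 CPM in PiC-PrL (log2 -2.01 ± 0.31 SE, adjusted p = 0.0452). Dpysl2 (chromosome 14, 66802864 to 66868688), a collapsin response mediator that binds tubulin, measured 776, 1426 and 875 CPM against 3758, 3716, 5309.9 and 7272 CPM (log2 -2.29 ± 0.36 SE, adjusted p = 0.0452). Neither gene's groups touched. Actb, the beta-actin gene, measured 1207, 1216 and 596 CPM against 2737, 4844, 2652 and 4495 CPM and Tmsb10, an actin-monomer binding thymosin, 118, 150.2 and 49.5 CPM against 513, 449, 473 and 680.3 CPM. Both passed (log2 -1.87 ± 0.37 and -2.32 ± 0.46 SE; adjusted p = 0.0452 for each), and in both PiC-MeA library 3 was the lowest.

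**Figure D2:**
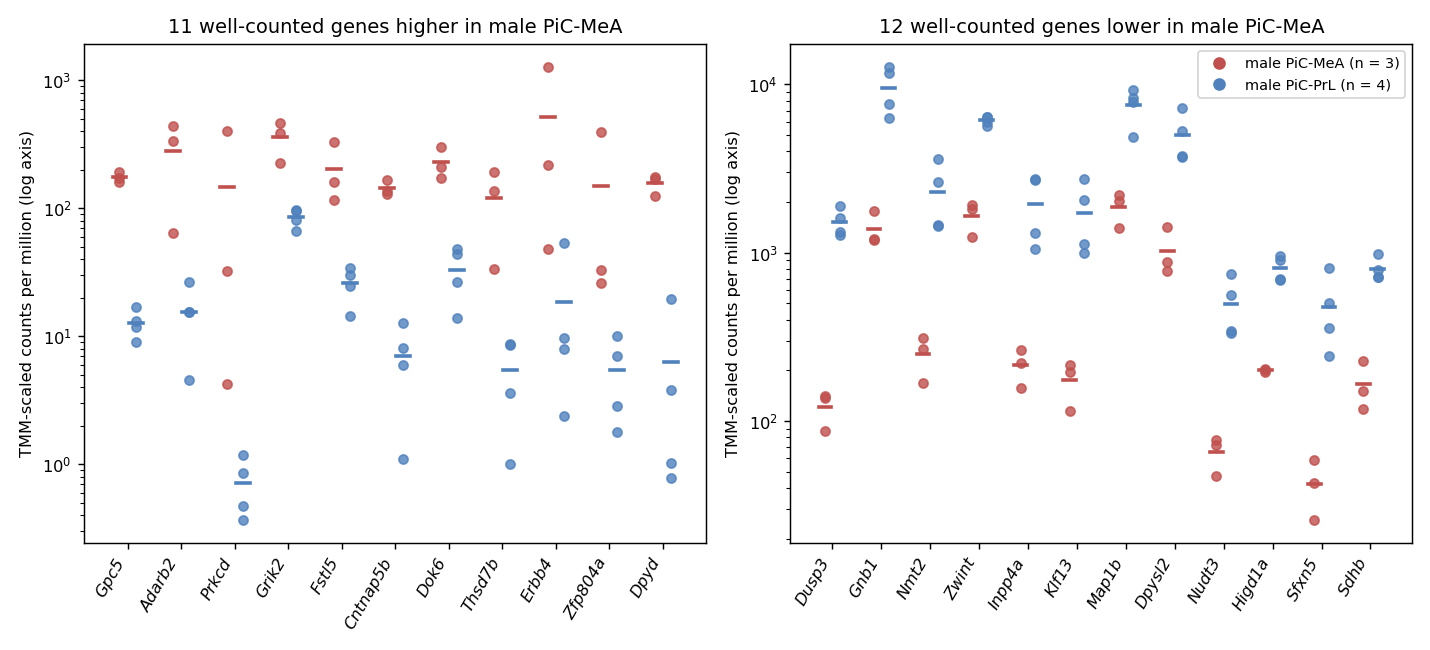
TMM-scaled CPM on a log axis for 11 higher (left) and 12 lower (right) well-counted genes among those with the smallest p, each point 1 library and each short line a group mean, male PiC-MeA in red and male PiC-PrL in blue. The lower genes form separate bands in all 12 cases, whereas among the higher genes Erbb4 overlaps and Prkcd and Zfp804a rest on a wide spread of the 3 PiC-MeA libraries.

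Most genes of mitochondrial respiration that the nucleus encodes had negative values. Of 75 tested members of the respiratory chain and ATP synthase, 9 passed as lower, beside 5.28% of all well-counted genes, and 0 as higher. The 68 well-counted members had a median log2 of -1.28, and 65 of them were negative. In 50 every PiC-MeA library lay below every PiC-PrL library, beside 22.6% of all well-counted genes. Sdhb (chromosome 4, 140961203 to 140979193), the iron-sulfur subunit of succinate dehydrogenase, measured 228, 150.2 and 118 CPM in PiC-MeA and 719, 982, 786 and 716 CPM in PiC-PrL (log2 -2.28 ± 0.37 SE, adjusted p = 0.0452). Ndufa12 of complex I measured 111, 97.5 and 71.2 CPM against 320.1, 519.6, 357 and 555 CPM (log2 -2.23 ± 0.42 SE, adjusted p = 0.0452). Uqcrq of complex III measured 118, 108 and 85.5 CPM against 285, 616, 417 and 662 CPM (log2 -2.25 ± 0.43 SE, adjusted p = 0.0452). Cytochrome c, encoded by Cycs, carries electrons to complex IV and was 3.05-fold lower, with 264, 344 and 234 CPM against 839, 1006, 738 and 841 CPM (log2 -1.61 ± 0.32 SE, adjusted p = 0.0452). In these 4 genes no PiC-MeA library reached the lowest PiC-PrL library. The summed level of the list, without TMM factors, was 9565 to 15520 CPM in PiC-MeA and 19510 to 20120 CPM in PiC-PrL.

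2 further mitochondrial proteins were among the 12 lower genes with the smallest p. Higd1a (chromosome 9, 121848563 to 121858362), a hypoxia-inducible protein of the inner membrane, measured 195, 205 and 202 CPM in PiC-MeA, the closest agreement of that group, and 693, 952, 686 and 902 CPM in PiC-PrL (log2 -2.01 ± 0.33 SE, adjusted p = 0.0452). Sfxn5 (chromosome 6, 85213049 to 85333422), a sideroflexin of the mitochondrial membrane, measured 25.7, 42.5 and 58.8 CPM against 242, 808, 355 and 505 CPM, a 11.3-fold lower level (log2 -3.50 ± 0.56 SE, adjusted p = 0.0452). Transcripts of the mitochondrial genome itself did not share this direction: of the 11 well-counted ones 10 had positive log2 values, the median was 0.64, and 0 passed. The 3 mitochondrial genes that passed as higher were transfer RNAs with no more than 1 count in each PiC-PrL library.

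Enzymes of glycolysis and the citric acid cycle had a negative median whose size varied with single libraries. All 30 tested members were well-counted, 29 had negative log2 values and the median was -1.08. Of them 6 passed as lower, beside 5.28% of all well-counted genes, and 0 as higher. Without PiC-MeA library 1 the median was -1.83, and without PiC-MeA library 3 it was -0.89. In each of the 7 fits that left out 1 library 0 members passed. The same held for the respiratory chain, proteasome, ribosomal and chaperone lists. Pfkp, the platelet-type phosphofructokinase that commits glucose to glycolysis, measured 271, 209.5 and 118 CPM in PiC-MeA and 615, 629, 719 and 963 CPM in PiC-PrL (log2 -1.87 ± 0.40 SE, adjusted p = 0.0452). Mdh2, the mitochondrial malate dehydrogenase, measured 565, 306 and 159.9 CPM against 1139, 1322, 1217 and 2028 CPM (log2 -2.05 ± 0.46 SE, adjusted p = 0.0452). Eno1, an enolase, fell from a PiC-PrL range of 3619 to 5768 CPM to 1511, 543 and 142 CPM (log2 -2.71 ± 0.65 SE, adjusted p = 0.0452). In all of these PiC-MeA library 1 was the highest and library 3 the lowest of its group. Without TMM factors the summed level of the list ran from 6903 to 21910 CPM in PiC-MeA and from 23150 to 27640 CPM in PiC-PrL. Acat2, an acetyl-CoA acetyltransferase of the sterol pathway, was the only one of 22 tested cholesterol synthesis genes to pass, with 109.6, 47.9 and 27.2 CPM against 234, 249, 453 and 519.8 CPM (log2 -2.56 ± 0.60 SE, adjusted p = 0.0452).

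The proteasome, which degrades ubiquitin-tagged proteins, had the lowest median of the plotted lists. Some lists that are not plotted and have fewer well-counted members were lower. Among them were cholesterol synthesis, at -1.45 over 11 members, and upper layer cortical genes, at -1.55 over 7. The 31 well-counted proteasome subunits were all negative with a median log2 of -1.35. In 20 of them the groups did not overlap, beside 22.6% of all well-counted genes with PiC-MeA below. Of 34 tested subunits 7 passed as lower, beside 5.28% of all well-counted genes, and 0 as higher. Psmc5, an ATPase of the regulatory particle, measured 322, 245 and 150.2 CPM in PiC-MeA and 768, 1022, 909.6 and 1444 CPM in PiC-PrL (log2 -2.12 ± 0.39 SE, adjusted p = 0.0452). Psmc1, another of these ATPases, measured 156, 192 and 119.6 CPM against 587, 447, 711 and 967 CPM (log2 -2.12 ± 0.40 SE, adjusted p = 0.0452). Psmb6, a catalytic subunit of the core, spanned 95.4 to 323 CPM and 487 to 1643 CPM (log2 -2.37 ± 0.54 SE, adjusted p = 0.0452). The ATPases were thus separated by group, as was Psmb6, with PiC-MeA library 1 the highest of its group for Psmc5 and Psmb6.

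Ribosomal protein genes followed, with 6 of 67 tested members lower, beside 5.28% of all well-counted genes, and 0 higher. Their median log2 was -1.09 over 56 well-counted members, 55 of them negative. Rpl3 measured 219, 197 and 138 CPM in PiC-MeA and 539, 345, 618 and 1062 CPM in PiC-PrL (log2 -1.79 ± 0.45 SE, adjusted p = 0.0452), and Rpl4 259, 319.8 and 146 CPM and 622, 946, 544 and 759 CPM (log2 -1.57 ± 0.39 SE, adjusted p = 0.0452). Both belong to the large subunit, and in both PiC-MeA library 3 was the lowest. Ribosomal protein genes have many processed copies in the genome, and no source used here says how reads shared with such copies were counted, so their levels are uncertain. Of 36 tested heat shock and chaperone genes 3 passed as lower, beside 5.28% of all well-counted genes. Their median log2 was -0.91 over 30 well-counted members. In the fit of well-counted genes alone the median of all well-counted genes was -0.11, and the list medians shrank. They were -0.63 for the respiratory chain, -0.75 for the proteasome and -0.49 for glycolysis and the citric acid cycle. For ribosomal proteins the median was -0.46, for chaperones -0.25 and for the cytoskeleton -0.40. Cct7, a subunit of the chaperonin that folds actin and tubulin, measured 443, 264 and 84.4 CPM against 1051, 1282, 940.0 and 1117 CPM (log2 -2.06 ± 0.50 SE, adjusted p = 0.0452). Hspa8, the constitutive heat shock 70 chaperone, measured 4067, 2729.7 and 1084 CPM against 6509.5, 8582, 6662 and 8327 CPM (log2 -1.52 ± 0.40 SE, adjusted p = 0.0475), with PiC-MeA library 1 the nearest to the PiC-PrL range.

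Calcium sensors and synaptic release proteins held lower genes without a lower list. Of 27 tested genes of calmodulin, its kinases and calcineurin, 4 passed as lower, beside 5.28% of all well-counted genes. The 22 well-counted members had a median log2 of -0.31. This list median was above that of all well-counted genes and became 0.31 in the fit of well-counted genes alone. Calm2, a gene of the calcium sensor calmodulin, measured 5275, 9495 and 5526 CPM in PiC-MeA and 16982, 24192, 16202 and 29298 CPM in PiC-PrL (log2 -1.68 ± 0.32 SE, adjusted p = 0.0452). Hpca, the hippocampal calcium sensor hippocalcin, had 63.9, 54.7 and 16.4 CPM against 244, 311, 302 and 399.9 CPM, a 6.98-fold lower level (log2 -2.80 ± 0.58 SE, adjusted p = 0.0452). Neither Calm2 nor Hpca had overlapping groups.

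Of 43 tested synaptic vesicle and release genes 4 passed as lower, beside 5.28% of all well-counted genes, and 1 as higher. The median log2 of 31 well-counted members was -0.55, or 0.11 in the fit of well-counted genes alone. Snap25, the plasma membrane SNARE of transmitter release, measured 4272, 7297 and 6363 CPM in PiC-MeA and 11142, 15820.5, 14199 and 17624 CPM in PiC-PrL (log2 -1.30 ± 0.28 SE, adjusted p = 0.0452). Gap43, a growth-cone protein, measured 899.6, 563 and 360.3 CPM against 1817, 3416, 1901 and 3197 CPM (log2 -2.09 ± 0.41 SE, adjusted p = 0.0452). Snap25, Gap43 and Stmn2, a regulator of microtubule dynamics, all passed as lower. They were the 3 of 16 tested pan-neuronal genes that passed, beside 5.28% of all well-counted genes that were lower. Of the 15 well-counted pan-neuronal genes 5 had PiC-MeA below without overlap, beside 22.6% of all well-counted genes. Rbfox3, the gene of the neuronal marker NeuN, did not pass, with 154, 93.8 and 44.3 CPM against 222, 123, 144 and 133 CPM (log2 -0.67 ± 0.58 SE, adjusted p = 0.665). Tubb3 and Nefl, which neurons use widely, were listed at 0 in all 7 libraries, so a listed 0 in this table does not show that a gene was silent.

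Higher genes that were well-counted were few, and 13 of the 17 spanned 300 kb or more. The cut of 50 CPM is a mean over all 7 libraries, so several met it only through PiC-MeA, where they were high. Mean PiC-PrL levels were 0.718 CPM for Prkcd, 4.49 for Gm10801, 5.49 for Thsd7b and 6.98 for Cntnap5b. Others, such as Grik2 at 84.9 and Opcml at 187 CPM, were above the cut in PiC-PrL too. Of the 17, the 2 with the smallest p were short predicted genes, which the rule for named genes leaves out and which are given after their values were seen. Gm10800 (chromosome 2, 98666547 to 98667301) measured 449.5, 669.5 and 1319 CPM in PiC-MeA and 21.8, 24.9, 19.4 and 32.5 CPM in PiC-PrL (log2 5.04 ± 0.48 SE, adjusted p = 0.00453), and Gm10801 (chromosome 2, 98662237 to 98664083) 96, 231 and 571 CPM and 2.06, 1.74, 8.06 and 6.1 CPM (log2 6.06 ± 0.88 SE, adjusted p = 0.0452). Gm10800 passed in 4 of the 7 fits that left out 1 library and Gm10801 in 0. Both were highest in PiC-MeA library 3, in the same 3 libraries that held 18964 to 20014 genes with a count, and their link to the other higher genes was not tested. Gpc5 (chromosome 14, 115092215 to 116525179), a glypican of the cell surface, measured 174, 193 and 162 CPM in PiC-MeA and 13.1, 17.1, 9.01 and 11.9 CPM in PiC-PrL. The 2 groups were tight and far apart, a 13.8-fold higher level in PiC-MeA (log2 3.78 ± 0.68 SE, adjusted p = 0.0452). Grik2 (chromosome 10, 49094833 to 49788766), a kainate-type glutamate receptor subunit, measured 225, 387 and 461 CPM against 95.7, 67.1, 96.3 and 80.4 CPM, 4.21-fold higher (log2 2.08 ± 0.44 SE, adjusted p = 0.0452). Cntnap5b (chromosome 1, 99772765 to 100485942), a contactin-associated adhesion protein, measured 130.3, 136 and 166 CPM against 12.6, 1.1, 6 and 8.17 CPM (log2 4.36 ± 0.97 SE, adjusted p = 0.0452). Dok6 (chromosome 18, 89292424 to 89769528), an adaptor of the receptor tyrosine kinase Ret, measured 211, 172 and 300.5 CPM against 44.1, 14, 26.8 and 48.1 CPM (log2 2.78 ± 0.62 SE, adjusted p = 0.0452). These 4 genes shared a PiC-MeA group in which every library was well above PiC-PrL.

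Fstl5 (chromosome 3, 76074270 to 76710019), a follistatin-like secreted protein, measured 117, 159.8 and 328 CPM in PiC-MeA and 30.2, 14.4, 34.4 and 24.8 CPM in PiC-PrL (log2 2.96 ± 0.66 SE, adjusted p = 0.0452). Dpyd (chromosome 3, 118562129 to 119432924), which breaks down pyrimidines, measured 126, 176 and 171 CPM against 19.6, 3.84, 1.03 and 0.787 CPM (log2 4.64 ± 1.20 SE, adjusted p = 0.0459). In Dpyd the PiC-MeA group was even, and PiC-PrL library 1 held most of the PiC-PrL signal. Thsd7b (chromosome 1, 129273302 to 130219278), a thrombospondin-domain protein, measured 33.6, 137 and 192 CPM against 3.62, 1.01, 8.77 and 8.56 CPM (log2 4.46 ± 1.13 SE, adjusted p = 0.0452). Zfp804a (chromosome 2, 82053222 to 82259879), a zinc finger protein, measured 33, 25.9 and 391 CPM against 1.78, 7.04, 2.84 and 10.1 CPM (log2 4.78 ± 1.22 SE, adjusted p = 0.0455). Library 3 of PiC-MeA carried most of the Zfp804a difference, although the other 2 also lay above PiC-PrL.

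3 of the higher genes are markers of neuron types. Adarb2 (chromosome 13, 8202866 to 8768747), a member of the RNA-editing enzyme family that marks a class of GABA interneurons, measured 64.5, 337 and 440.0 CPM in PiC-MeA and 15.3, 15.4, 26.5 and 4.53 CPM in PiC-PrL (log2 4.18 ± 0.81 SE, adjusted p = 0.0452). Erbb4 (chromosome 1, 68032186 to 69108059), the neuregulin receptor of many interneurons, measured 48.1, 217 and 1278 CPM against 7.96, 53.4, 2.37 and 9.74 CPM (log2 4.81 ± 1.22 SE, adjusted p = 0.0452); PiC-MeA library 1 was below PiC-PrL library 2. Prkcd (chromosome 14, 30595354 to 30626210), a protein kinase C of central amygdala and thalamic neurons, measured 4.22, 32.2 and 401 CPM against 0.853, 0.365, 0.474 and 1.18 CPM (log2 7.65 ± 1.56 SE, adjusted p = 0.0452). In all 3 genes library 1 of PiC-MeA was the lowest and library 3 the highest of the group.

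Slc17a6, Gad1 and Camk2a differed widely among the 3 PiC-MeA tubes. Over all 12600 tested genes, which are not independent, Spearman's rho was 0.694 to 0.796 within PiC-MeA and 0.589 to 0.676 within PiC-PrL. Many of these genes entered the test through PiC-MeA counts alone, so the 2 ranges cannot say which group is more alike. PiC-MeA library 1 had a rho of 0.694 with PiC-MeA library 3, 0.712 with PiC-PrL library 1 and 0.637 to 0.687 with the other PiC-PrL libraries. Slc17a6 measured 0.239, 244 and 535 CPM in PiC-MeA and 5.4, 0.183, 3.48 and 0.0984 CPM in PiC-PrL, so library 1 was at the PiC-PrL level and libraries 2 and 3 were far above it (log2 6.81 ± 1.91 SE, adjusted p = 0.0529). Gad1 measured 28.2, 157 and 776 CPM against 30.9, 64.9, 5.53 and 10.4 CPM, again lowest in PiC-MeA library 1 (log2 3.52 ± 1.09 SE, adjusted p = 0.069). Camk2a ran the other way, with 1684, 523 and 151 CPM in PiC-MeA, highest in library 1, and 866, 912, 1053 and 718 CPM in PiC-PrL (log2 -0.17 ± 0.61 SE, adjusted p = 0.955). Slc17a7 was low in both groups, with 51.6, 18.1 and 19.2 CPM against 32.5, 32.2, 49.7 and 44 CPM (log2 -0.42 ± 1.11 SE, adjusted p = 0.933). None of the 4 passed. Summed over 23 inhibitory neuron markers off the X and Y chromosomes, the level was 2156 to 5782 CPM in PiC-MeA and 1065 to 1850 CPM in PiC-PrL; 2 of 18 tested markers passed, both higher, and Dlx1 and Dlx6 were at 0 in both groups. Of 16 tested excitatory markers 1 passed, Hpca, as lower, and the summed level was 2440 to 5507 CPM in PiC-MeA and 3208 to 4273 CPM in PiC-PrL. Among cortical layer genes Lmo4, a cofactor of LIM transcription factors, was the only one of 13 upper layer genes to pass, with 168, 85.7 and 144 CPM against 747, 559, 646 and 630.3 CPM (log2 -2.28 ± 0.38 SE, adjusted p = 0.0452), and 0 of 22 deep layer genes passed.

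Glutamate and GABA receptor, potassium channel, adhesion and guidance lists had positive medians, with few genes passing. The 33 well-counted synaptic adhesion molecules had a median log2 of 0.60, and 27 were positive. In 9 every PiC-MeA library lay above every PiC-PrL library, beside 3.17% of all well-counted genes. Of 51 tested adhesion molecules 3 passed as higher, Cntnap5b, Cntnap5c and Opcml, and 0 as lower. Over all tested genes 5.92% passed as higher, so this count lies near that share and is not a result about the list. Opcml, an IgLON adhesion molecule, measured 802, 528 and 438 CPM in PiC-MeA and 197, 81.2, 223 and 245 CPM in PiC-PrL (log2 1.66 ± 0.44 SE, adjusted p = 0.0483). The 14 well-counted glutamate receptor genes had a median of 0.69 with 5 apart above, and 1 of 21 tested passed, Grik2. For 16 well-counted axon guidance genes the median was 0.83, for 12 cadherins and protocadherins 0.63, for 11 GABA and glycine receptors 0.43 and for 17 potassium and HCN channels 0.34. Of these 4 lists 4 of 51 tested guidance genes, 1 of 22 cadherins and protocadherins and 3 of 60 channels passed, all higher, beside 5.92% of all tested genes. No member of the 4 lists passed as lower. Of the members that passed only 1, a channel, was well-counted. The others had few or no counts in PiC-PrL and entered the test through PiC-MeA alone, so these counts are not a result about the lists. Other receptors and channels did not share the sign: the 6 well-counted monoamine, acetylcholine and peptide receptors were all negative with a median of -0.68, and of 16 voltage-gated sodium and calcium channels 9 were positive and 7 negative, with a median of 0.02 that turned to -0.07 and -0.04 without PiC-MeA library 1 or 2.

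**Figure D3:**
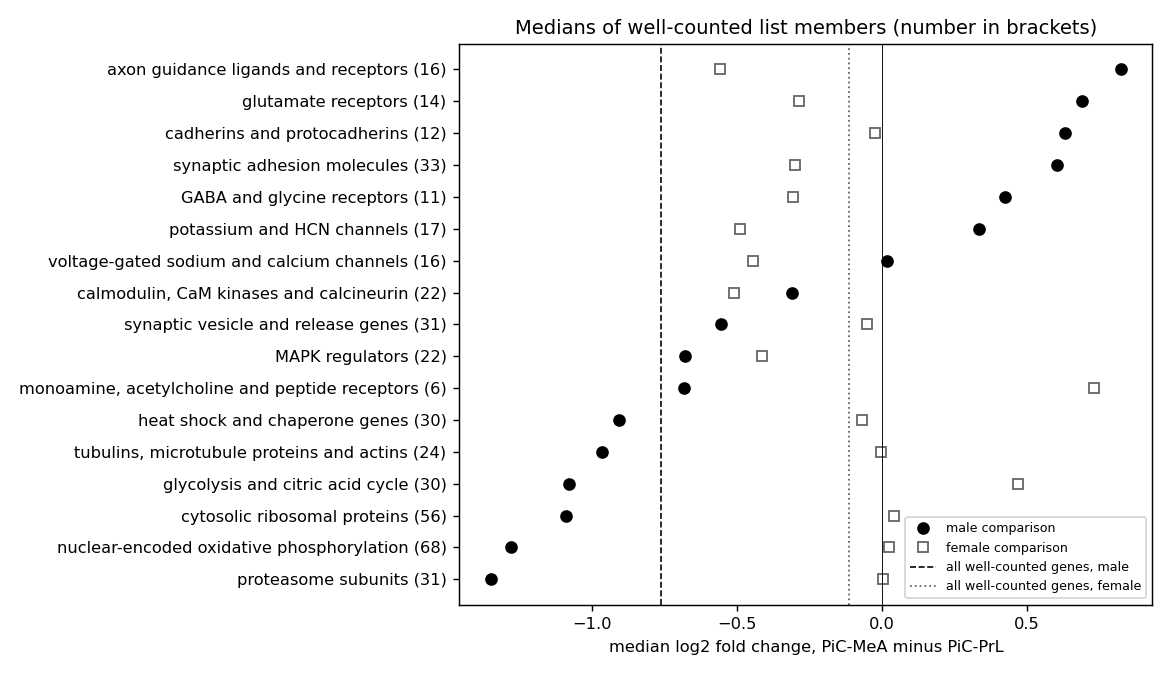
Median log2 fold change of the well-counted members of gene lists (number of members in brackets), filled circles for the male and open squares for the female comparison; the dashed and dotted lines are the medians of all well-counted genes. The male medians run from -1.35 for proteasome subunits to 0.83 for axon guidance genes around a line at -0.76, and the female medians lie between -0.56 and 0.73.

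Gene length separated the 2 sides. Among well-counted genes the median log2 value was -1.26 for 816 genes spanning under 10 kb, -1.10 for 997 of 10 to 30 kb, -0.62 for 980 of 30 to 100 kb, -0.19 for 561 of 100 to 300 kb and 0.57 for 340 of 300 kb or more. Of the longest class 13 genes passed as higher and 1 as lower, and of the shortest 2 as higher and 77 as lower. The median span was 647 kb for the 17 higher genes, 14.7 kb for the 195 lower ones and 31.4 kb for all well-counted genes. Genes of at least 200 kb took 16.2 to 18.7% of counts in the male PiC-MeA libraries and 8.12 to 9.92% in male PiC-PrL, and genes under 20 kb took 39.8 to 43.4% and 48.5 to 53.4%. When the trend with span was removed within each library, an alternative chosen after seeing the data, 31 genes passed as lower and 5 as higher, 194 of the 195 lower genes kept their sign, and the medians of ribosomal proteins (0.16), adhesion molecules (-0.01), glutamate receptors (-0.06), cadherins (-0.13), GABA receptors (-0.48), potassium channels (-0.30) and sodium and calcium channels (-0.83) changed sign over their well-counted members. Over all tested members of these lists adhesion molecules (0.06), glutamate receptors (0.01), cadherins (0.15) and potassium channels (0.19) stayed positive under that alternative, and GABA receptors (-0.04) and axon guidance genes (-0.07) turned negative.

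**Figure D4:**
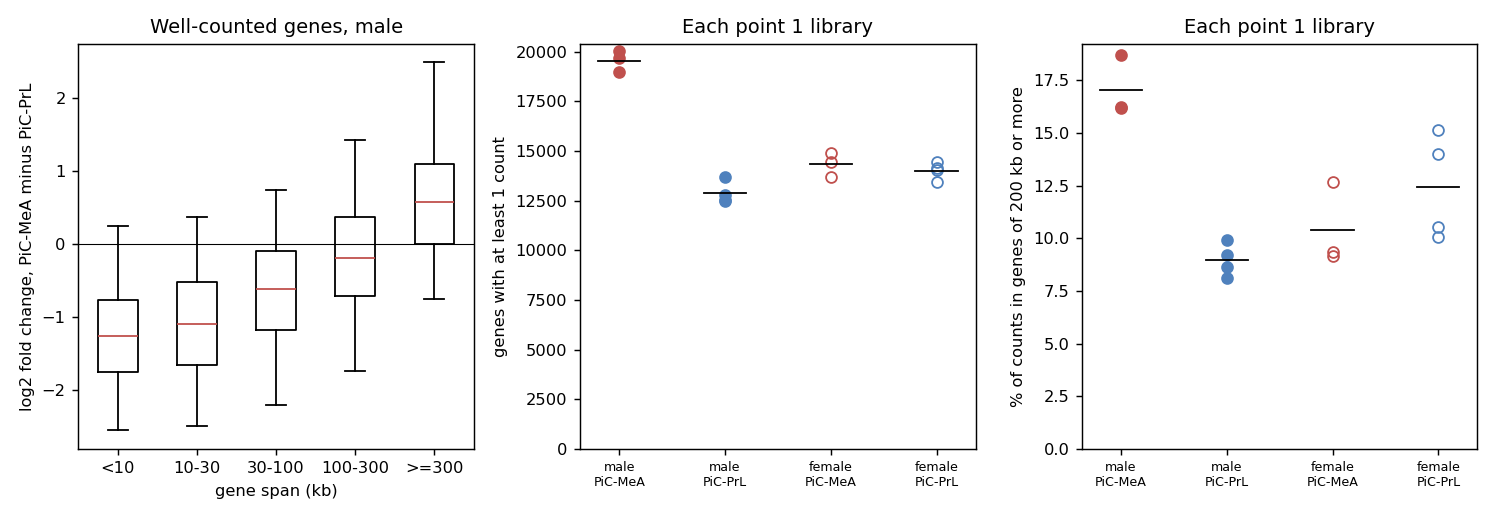
Left, log2 fold change of well-counted genes in the male comparison by gene span (box, quartiles; line, median; whiskers, 5th to 95th percentile); middle and right, genes with at least 1 count and percent of counts in genes of 200 kb or more, each point 1 library and each line a group mean. The medians climb from -1.26 to 0.57 with span, and the 3 male PiC-MeA libraries, at 18964 to 20014 genes and 16.2 to 18.7%, lie above the other 11 libraries in both library measures.

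Genes with few counts gave most of the higher calls, and the best known among them are given with raw counts. Tac1, the substance P precursor, had 19, 98 and 199 counts in PiC-MeA and 1, 0, 1 and 0 in PiC-PrL. Nts, the neurotensin precursor, had 21, 48 and 157 counts in PiC-MeA and none in PiC-PrL, where a count of 0 allows up to 3 counts per library. Oprm1, the mu opioid receptor, had 263, 941 and 785 counts against 0, 6, 7 and 1, and Sema3a, a secreted repellent of axons, 160, 1007 and 726 against 2, 2, 12 and 1. All 4 passed (adjusted p = 0.0462 for Tac1 and Nts, 0.0452 for Oprm1 and Sema3a) and none was well-counted. They entered the test through their PiC-MeA counts, so their calls too are only a description. Of 21 tested neuropeptide precursors Tac1 and Nts were the 2 that passed, and of 41 tested monoamine, acetylcholine and peptide receptors 4 passed, all higher.

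Genes of steroid hormone synthesis and reception were mostly low or variable. Cyp19a1, the aromatase that makes oestradiol, had 83, 11 and 16 counts in PiC-MeA and 1, 0, 0 and 0 in PiC-PrL and was the only one of 13 tested steroid genes to pass (adjusted p = 0.0452); it also entered the test through PiC-MeA alone and was not among the genes tested when 10 counts in 5 libraries were required. Esr1, oestrogen receptor alpha, measured 30.2, 63.9 and 35.9 CPM against 0.213, 0.365, 0.948 and 1.97 CPM and did not pass (log2 5.62 ± 1.70 SE, adjusted p = 0.0619). It was not well-counted and had 3, 4, 12 and 20 counts in PiC-PrL. Esr1 thus also entered the test through PiC-MeA, and its gap between the groups is only a description. Pgr, the progesterone receptor, measured 25.1, 31.1 and 98.1 CPM against 53.2, 0.183, 9.8 and 161 CPM, a spread in PiC-PrL that covered the PiC-MeA values (log2 -0.12 ± 1.49 SE, adjusted p = 0.988). Nr3c1, the glucocorticoid receptor, measured 88.3, 149 and 231 CPM against 127, 113, 175 and 2.16 CPM (log2 0.58 ± 0.97 SE, adjusted p = 0.873), with PiC-PrL library 4 near 0. Of 33 tested immediate early genes, which neuronal activity induces, 1 passed as lower and 1 as higher. The lower one, Gadd45g, measured 33.4, 11.3 and 7.7 CPM against 202, 152, 133 and 183 CPM (log2 -3.26 ± 0.75 SE, adjusted p = 0.0452), and Fos did not pass, with 232, 224 and 360.0 CPM against 279, 339, 231 and 2197 CPM, the last of these a single high library (log2 -1.49 ± 0.77 SE, adjusted p = 0.335).

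Transcripts of other cell types were present in both groups. Summed over 20 astrocyte markers the level was 2377 to 4423 CPM in PiC-MeA and 3204 to 6774 CPM in PiC-PrL; of 19 tested, 1 passed as lower, Aldoc, which is also a glycolytic enzyme, and 1 as higher at low counts. Slc1a2, the main glial glutamate transporter, measured 764, 620.3 and 834 CPM against 453, 842, 624 and 1041 CPM (log2 -0.00 ± 0.35 SE, adjusted p = 0.999), and Aqp4, the water channel of astrocyte endfeet, 37.5, 148 and 52.6 CPM against 0.782, 0, 72.6 and 0.0984 CPM (log2 2.11 ± 2.01 SE, adjusted p = 0.72). Slc1a2 levels were thus similar in this scaling, but Slc1a2 does not stand for its list. All 9 well-counted astrocyte markers had negative log2 values, with a median of -1.19 beside -0.76 over all well-counted genes. Microglia markers summed to 362 to 630 CPM in PiC-MeA and 549 to 824 CPM in PiC-PrL, with P2ry12, Trem2 and Itgam at 0 throughout, and 0 of 15 tested passed. The 5 well-counted microglia markers were all negative, with a median log2 of -1.26. Oligodendrocyte markers summed to 445 to 1536 CPM and 274 to 1649 CPM, and 0 of 13 tested passed. Oligodendrocyte precursor markers summed to 44.2 to 311 CPM and 2.67 to 109 CPM, with Gpr17 at 0 throughout, and 0 of 5 tested passed. Endothelial and mural markers summed to 299 to 493 CPM and 528 to 864 CPM with Cldn5 and Kcnj8 at 0, and 3 of 11 tested passed as higher at low counts, among them Pdgfrb with 137, 75 and 23 counts against none. Red blood cell genes summed to 42.2 to 44.5 CPM in PiC-MeA and 111 to 918 CPM in PiC-PrL, without TMM factors as for all sums. Hba-a1 passed as lower, with TMM-scaled levels of 14.8, 12.5 and 10 CPM against 79.8, 75.6, 312 and 925 CPM (log2 -4.80 ± 0.99 SE, adjusted p = 0.0452). This gene has a near-identical copy, so its level is uncertain. The part of these cells in the lower and higher gene groups was not tested.

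The female libraries of the same projections gave a separate comparison of 3 against 4. In the edgeR quasi-likelihood test 0 of 10360 genes passed (0%), with 624 at an unadjusted p under 0.05 and a smallest adjusted p of 0.359; no other tool was run on it. The test of the difference between the male and female projection differences gave 0 of 14080 genes (0%), with 2226 at an unadjusted p under 0.05 and a smallest adjusted p of 0.15. Of the 195 genes lower in male PiC-MeA, 154 (79.0%) were also negative in females, beside 56.2% of the 3689 well-counted genes tested there, and their female median was -0.48 beside -0.11. All 12 lower genes with the smallest p were negative in females: Dusp3 by -1.30 ± 0.32 SE, Gnb1 by -1.62 ± 0.27 and Sfxn5 by -2.01 ± 0.45, with female adjusted p values of 0.445, 0.359 and 0.404. Sdhb, at -0.17 ± 0.30, and Zwint, at -0.36 ± 0.21, were the nearest to 0. Of the 17 higher genes 9 were positive in females, and of the 11 that are plotted 5 were positive and 6 negative. Erbb4 measured -2.30 ± 1.00 in females and Prkcd -2.40 ± 2.60, both opposite in sign to the male values.

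**Figure D5:**
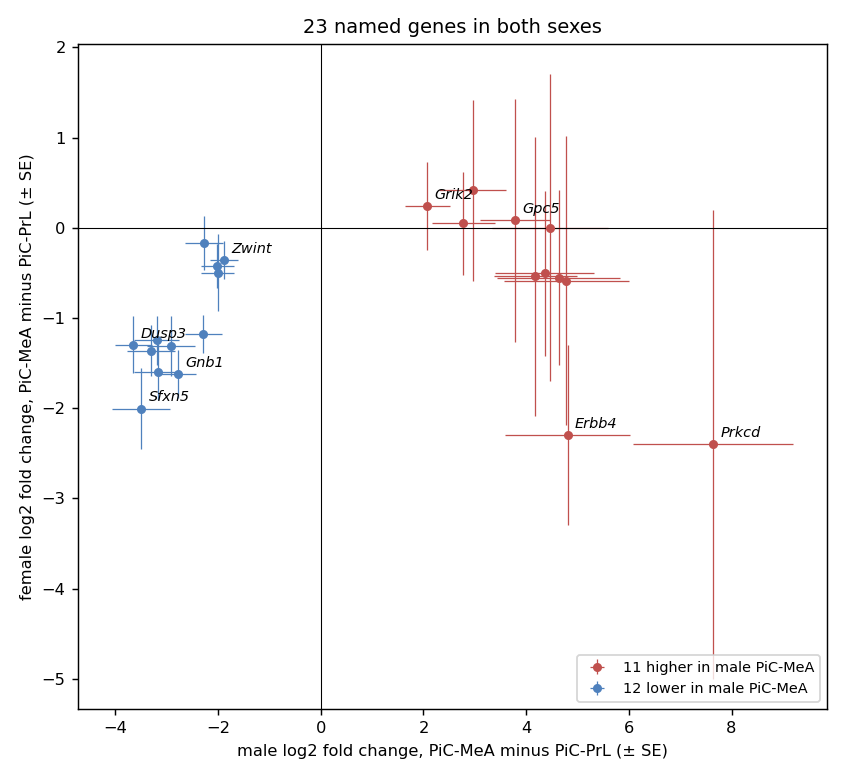
Log2 fold change PiC-MeA minus PiC-PrL of the same 11 higher and 12 lower genes in males (x axis) and females (y axis), with bars of ± SE. The 12 lower genes all lie below 0 on both axes, and the 11 higher genes scatter around 0 on the female axis, with Erbb4 at -2.30 and Prkcd at -2.40.

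The metabolic lists had medians near or above 0 in females. Their well-counted medians there were 0.02 for the respiratory chain and ATP synthase, 0.04 for ribosomal proteins, 0.0039 for proteasome subunits and 0.47 for glycolysis and the citric acid cycle, against -1.28, -1.09, -1.35 and -1.08 in males. The difference between the sexes was tested gene by gene only, where none passed. Pfkp measured 1.01 ± 0.47 in females and -1.87 ± 0.40 in males, and Psmc5 0.24 ± 0.30 and -2.12 ± 0.39. By contrast St13, an Hsp70-interacting protein, was lower by nearly the same log2 amount in both, at -2.43 ± 0.52 and -2.47 ± 0.63, as was Spry2, at -2.39 ± 0.59 and -2.65 ± 0.59, though the female values did not pass (adjusted p = 0.359 and 0.445).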

How the data were processed

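The authors deposited raw read counts per gene, with a column for each library, neither normalised nor pooled, as the whole numbers show. Tools named in the submitters' processing notes are featureCounts 2.0.1, HISAT2 2.2.1, Trimmomatic 0.39 and SAMtools, with mm10 as build. Annotation release, strand setting and the treatment of shared reads are not given here. Of 55401 genes, 55141 matched GENCODE M21 (GRCm38) without version; 2599 X and 1564 Y genes were left out. The 7 male columns were filtered (filterByExpr, minimum count 10, total 15), scaled by TMM and fitted with robust quasi-likelihood in edgeR 4.0.16 under R 4.3.3, with Benjamini-Hochberg adjustment over all genes tested. The female columns and the 4-group difference were fitted likewise. The fitting script was checked on simulated counts. Named genes are up to 12 per direction with the smallest p among well-counted genes that passed (predicted, mitochondrial and red blood cell genes aside), up to 4 members of each list, and 12 marker and hormone genes always given; a few genes that this rule picks are not reported here. The members and gene lists were chosen with earlier results of these data known. Alternatives included DESeq2 1.42.0 and limma 3.58.1. Floors of 3 counts cover counting error only.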

Additional observations from a re-analysis of the deposited data

Results flagged for a closer look

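In the 4 male PiC-PrL libraries 1 value stood apart from the other 3 for some measures, which chance gives in about 1 of 20 groups. Fos was at 2197 CPM in library 4 (next highest 339 CPM), Nras at 1094 CPM in library 2 (next 495 CPM), Aqp4 at 72.6 CPM in library 3 (next 0.782 CPM) and Sema3a at 0.948 CPM in library 3 (next 0.183 CPM). Nr3c1 was at 2.17 CPM in library 4, where the next lowest was 113 CPM. Olfactory receptor genes with a count numbered 45 in library 3 and 43 in the other 3, a small step that stands out only because those 3 agree.

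For 3 library measures the projection difference, PiC-MeA minus PiC-PrL, differed between the sexes before adjustment but not after it. For genes with at least 1 count the male minus the female difference was 6365 genes, with means of 19557 and 12868 in males and 14334 and 14011 in females. For olfactory receptor genes with a count it was 213 genes, with means of 253 and 43.5 in males and 58.7 and 62.5 in females. For the mitochondrial share it was 7.29 percentage points, with means of 9.76 and 5.78% in males and 3.60 and 6.90% in females, so the sign was opposite in the 2 sexes for the last 2 measures. Exact permutation within each sex gave p = 0.0457, 0.0196 and 0.0343, each 0.0609 after adjustment over the 4 measures.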

How the results depend on the processing

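The counts of genes that passed depended on the processing far more than the signs did. Signs of genes chosen on these same libraries are no independent check. Higher and lower genes numbered 777 and 166 with DESeq2 size factors, 755 and 180 with TMMwsp factors, 786 and 201 with X and Y genes kept and 818 and 187 without robust fitting. They numbered 3264 and 365 in DESeq2's Wald test (29 and 265 well-counted), 1923 and 418 with limma voom (18 and 397), 45 and 136 without a filter, 7 and 83 with all 14 libraries (5 and 83), 2 and 2 with 10 counts in 5 libraries, 4 and 3 with well-counted genes alone, 5 and 31 with the span trend removed (chosen after seeing the data; all well-counted) and 0 and 0 with the number of detected genes as covariate. Leaving out 1 library gave 0 to 1 higher and 0 to 2 lower genes, with the same range for well-counted genes. With the replicate number as a block 2 and 6 genes passed; same-numbered libraries had residual correlations of 0.0335, 0.0145 and -0.0118, so the numbers were not taken as pairs. The cause of these differences was not tested. Under every setting except the covariate and the span trend, each well-counted gene that passed and was tested kept its sign; with the covariate 81 of 195 lower and 11 of 17 higher genes did. The all-gene median log2 was -0.16, and -0.02 with DESeq2 size factors.

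Signs changed with that covariate, which does not overlap between the groups, as follows: Adarb2 -4.84, Grik2 -1.31, Fstl5 -0.81, Cntnap5b -0.71, Dpyd -8.54, Klf13 1.71, Map1b 1.00, Sdhb 0.25, Gap43 2.85, Stmn2 2.86, Hpca 0.44, Tac1 -7.65, Aldoc 4.72, Hba-a1 6.31, Ndufa12 1.06, Uqcrq 2.39, Rpl3 0.51, Psmc5 1.70, Psmb6 5.51, Cct7 1.12, St13 1.67, Hspa8 1.82, Pfkp 0.93, Mdh2 2.62, Eno1 3.82, Acat2 3.88, Sema3a -0.46, Cntnap5c -6.50, Dusp8 2.39, Actb 1.09, Slc17a7 4.55, Camk2a 4.86, Slc17a6 -30.28, Gad1 -1.74, Aqp4 -3.45, Slc1a2 4.38, Pgr 0.96, Nr3c1 -5.83, Fos 7.29, median of well-counted nuclear-encoded oxidative phosphorylation 0.86, median of well-counted proteasome subunits 1.33, median of well-counted glycolysis and citric acid cycle 2.62, median of well-counted heat shock and chaperone genes 0.78, median of well-counted tubulins, microtubule proteins and actins 2.05, median of well-counted synaptic vesicle and release genes 1.28, median of well-counted monoamine, acetylcholine and peptide receptors 3.34. The cause was not tested. With the span trend removed the changed values were Slc17a7 0.015, Nr3c1 -0.45, median of well-counted cytosolic ribosomal proteins 0.16, median of well-counted synaptic adhesion molecules -0.0099, median of well-counted cadherins and protocadherins -0.13, median of well-counted glutamate receptors -0.061, median of well-counted GABA and glycine receptors -0.48, median of well-counted potassium and HCN channels -0.30, median of well-counted voltage-gated sodium and calcium channels -0.83. With well-counted genes alone they were Camk2a 0.39, Slc1a2 0.69, Pgr 0.66, median of well-counted synaptic vesicle and release genes 0.11, median of well-counted calmodulin, CaM kinases and calcineurin 0.31, and with 10 counts in 5 libraries Camk2a 0.066, Slc1a2 0.29, Pgr 0.19. Genes near 0 changed sign elsewhere: Slc1a2 0.100, Pgr 0.018 in the Wald test, Slc1a2 0.12, Pgr 0.044 with DESeq2 size factors, Slc1a2 0.025 with TMMwsp, Slc1a2 0.098, Pgr 0.023 with all 14 libraries, Slc1a2 0.082, Pgr 1.48 with voom, Slc1a2 0.070 without a filter and Slc1a2 0.25, Pgr 3.18 with the replicate block. Over single libraries left out, Camk2a ran from -1.43 to 0.35, Slc1a2 ran from -0.087 to 0.22, Pgr ran from -1.002 to 1.29, median of well-counted voltage-gated sodium and calcium channels ran from -0.067 to 0.15. Of the 62 genes named here that passed, leaving out 1 library reversed none in any of the 7 fits. They were chosen on these same libraries, so this was nearly fixed in advance. With 6132985 counts PiC-MeA library 3 was the shallowest and its low counts are the least precise.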
